A study of Mus musculus with 9 samples.

Results

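Oxidative phosphorylation genes were followed across 9 RNA libraries of sorted mouse intestinal cells, as 113 of the 78239 genes counted. They were taken by gene type and symbol, namely the protein-coding genes of complexes I to V, their Ndufaf assembly factors and cytochrome c. Of these, 100 are nuclear genes and 13 are encoded in the mitochondrial genome. The nuclear set held 38 genes of complex I, 8 assembly factors of complex I, 4 of complex II, 9 of complex III, 21 of complex IV, 19 of complex V and Cycs, which encodes cytochrome c. The symbols also matched 43 genes of other types, such as 22 mitochondrial tRNAs and 18 processed pseudogenes, which were left out.

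The groups were GFP-high colon, GFP-negative colon and small intestine, with 3 libraries each. All came from mice of 8 weeks of age with the allele Lgr5-2A-eGFP. GFP there reports Lgr5, a receptor of intestinal stem cells. Crypt cells were sorted on GFP, with a minimum of 30000 cells per fraction in colon and 50000 in small intestine, and polyadenylated RNA was sequenced. Which fraction the small intestinal libraries hold is not in the labels, and region and sort fraction cannot be told apart in a comparison with them. The labels do not name separate animals either, so p-values measure the spread between these libraries, which may be technical.

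Lgr5, the gene behind the sort, did not match the sort labels in 1 of 3 colon pairs. It stood at 43.5 and 73.0 CPM (counts scaled to library size) in GFP-high colon replicates 1 and 3, and at 2.84 and 6.28 CPM in GFP-negative colon replicates 1 and 3. The library labelled GFP-high colon replicate 2 had 0.958 CPM and the library labelled GFP-negative colon replicate 2 had 62.1 CPM. The 3 small intestinal libraries had 57.9, 119.7 and 208.7 CPM. Libraries held 86621513 to 106673547 counts, and mitochondrial genes of any type took 0.678% to 1.26% of them. Pan-epithelial markers summed to 8549 to 18741 CPM in colon and 11131 to 19449 CPM in small intestine. Leukocyte markers summed to 24.4 to 6284 CPM in colon and 1082 to 2609 CPM in small intestine. The main comparison sets all 6 colon libraries against small intestine, since it takes in the same libraries whichever of them is GFP-high. Its fit still held a mean for each labelled colon group, so its values are not free of the labels. The GFP-high and GFP-negative libraries of colon replicate 1 share a tag in their library names, as do those of colon replicate 2. Whether such libraries come from the same animal is not given, and the fit counts each of the 6 as a separate unit.

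Oxidative phosphorylation is the chain of reactions in the inner mitochondrial membrane by which electrons from food are passed to oxygen and ATP is made. Complexes I and II take up electrons, complex III and cytochrome c carry them on, complex IV hands them to oxygen, and complex V, the ATP synthase, uses the proton gradient that complexes I, III and IV build. Complexes I, III, IV and V hold subunits from both genomes, while complex II is wholly nuclear and also works in the tricarboxylic acid cycle. In the colon, epithelial cells are known for oxidising butyrate as a fuel.

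Several mitochondrial genes have near-identical copies in nuclear DNA, which bears on how reads can be counted. The annotation lists several copies next to each other on chromosome 1. Among them, Gm29216 shares words with mt-Co1 and Gm28439 with mt-Nd4, and these were not aligned. The 5 others named here were aligned. They are 100% identical over 681 bases for mt-Co2 and Gm28661, 678 bases for mt-Atp6 and Gm10925, 783 bases for mt-Co3 and Gm28437 and 294 bases for mt-Nd4l and Gm10222. Over 345 bases of mt-Nd3 and Gm28438 the identity was 99.7%, with the single substitution T3C, counted from the gene's first base with the mitochondrial base first. The first 90 bases of mt-Co2 (chrM:7013-7102, plus strand) and of its copy (chr1:24615476-24615565, minus strand), from GENCODE M21 on GRCm38, are shown because no read within them can be assigned to one place, and no base is in capitals because none differs.
mt-Co2: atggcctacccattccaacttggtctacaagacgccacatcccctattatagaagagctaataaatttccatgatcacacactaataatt
Gm28661: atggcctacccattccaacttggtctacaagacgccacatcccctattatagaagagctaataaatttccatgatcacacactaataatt

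Mitochondrial genes differed widely in level. On the scale of reads per kilobase (RPKM, CPM divided by gene length, mean of 9 libraries), mt-Cytb, the complex III subunit, had 2781 RPKM, mt-Nd1 of complex I had 1791 RPKM and mt-Co1, the catalytic subunit of complex IV, had 1540 RPKM. The genes mt-Nd4, mt-Nd2, mt-Nd6 and mt-Nd5, all of complex I, had 353, 267, 216 and 174 RPKM. At the low end, mt-Co3 had 36.1, mt-Atp6 28.2, mt-Nd3 20.7, mt-Co2 18.6 and mt-Nd4l 0.610 RPKM. For these last 5 genes, 98.0% to 100% of the 50-base words in the transcript also stood in transcripts of other genes, against 0% in mt-Cytb, mt-Nd1 and mt-Nd6, 51.1% in mt-Co1 and 62.2% in mt-Nd4. The gene mt-Atp8, at 5.92 RPKM, shared no word, but 21.1% of its bases lie in another gene's exons. Words were compared with annotated transcripts only. As mt-Atp8 lies between mt-Co2 and mt-Atp6, which both have nuclear copies described above, a copy outside annotated transcripts would have been missed. Counts were also assigned to some copies, though identical sequence cannot show where such reads came from. Over the 9 libraries, Gm28437 had 19.3 to 51.7 CPM and Gm10925 had 17.3 to 44.7 CPM. Gm28661 had 11.2 to 20.0 CPM in colon and 8.57 to 21.3 CPM in small intestine, where mt-Co2 had 9.89 to 16.6 CPM in colon and 6.77 to 18.5 CPM in small intestine. Gm28438 was at 0 in all 9 libraries, and Gm10222 had 0.150 to 0.554 CPM in colon and 0.434 to 0.508 CPM in small intestine. How reads that map to several places were handled is not given in the sources used here, and the part of shared sequence in these levels was not tested.

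**Figure D1:**
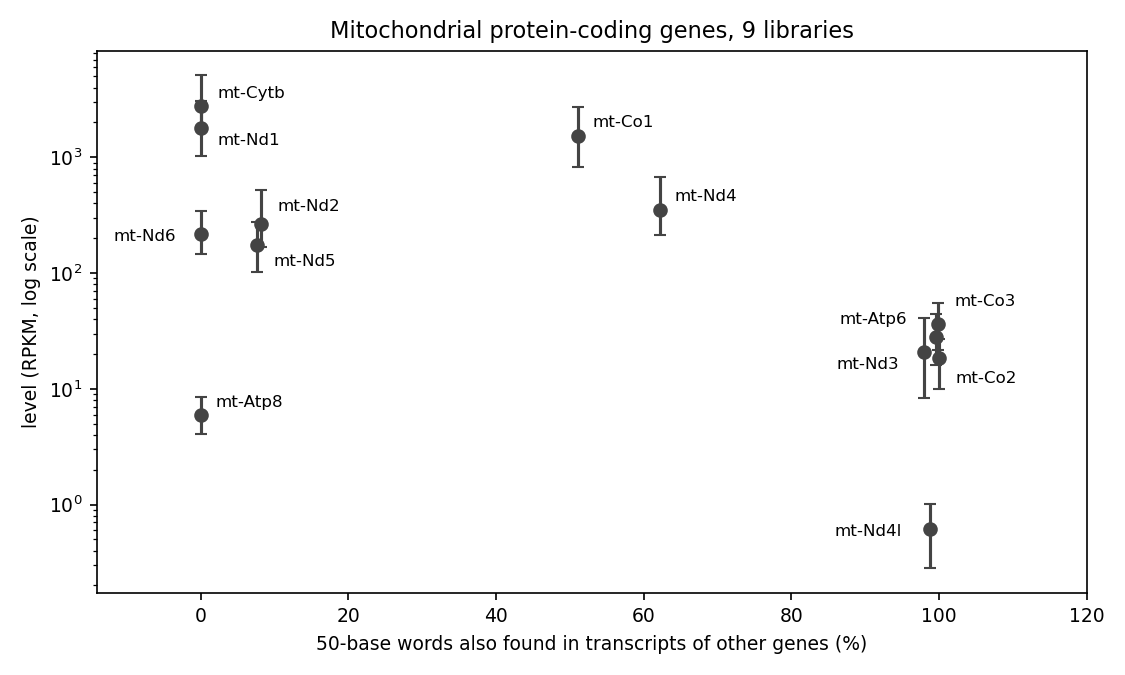
Level of each mitochondrial protein-coding gene (RPKM, log axis; point, mean of 9 libraries; bar, lowest to highest library) against the share of its 50-base words also found in transcripts of other genes (%). The 5 genes at 98.0% or more lay between 0.610 and 36.1 RPKM on average, below the 174 to 2781 RPKM of the other genes apart from mt-Atp8.

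Among nuclear genes, subunits of complex IV had the highest levels per length. Cox6a1, a structural subunit of cytochrome c oxidase, averaged 2510.2 RPKM over the 9 libraries, Cox8a 2358 RPKM and Cox6b1 1199 RPKM. In complex V, Atp5f1a, the alpha subunit of the catalytic F1 head, had 989 RPKM, in complex III Uqcrb had 789 RPKM, and in complex II Sdhd, a membrane anchor, had 769 RPKM. Ndufa1 led complex I at 641 RPKM, Ndufaf8 led its assembly factors at 96.6 RPKM, and Cycs had 224 RPKM. RPKM here divides by the length of all annotated exons together, which understates genes with long alternative exons.

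Tissue isoforms of complex IV differed in level, with the widely expressed form high and the alternative form low in every library. Cox8a had 1089 to 2023 CPM in colon and 604 to 1668 CPM in small intestine. Cox8b, known from heart and muscle, had 0 to 0.482 CPM in colon and 0 in all 3 small intestinal libraries, where 3 counts make 0.0232 to 0.0411 CPM, and Cox8c had no count in any library. Cox7a1, another muscle form, had 1.82 to 10.6 CPM in colon and 0.967 to 21.2 CPM in small intestine, while Cox7a2 had 199.7 to 462 CPM in colon and 144 to 409 CPM in small intestine. Cox6b2, known from testis, had 4.37 to 26.5 CPM in colon and 12.6 to 23.6 CPM in small intestine, which is at most 0.0429 of the CPM of Cox6b1 in the same library. Cox6a2, another heart and muscle form, reached 1.44 CPM in colon and 0.713 CPM in small intestine, against 1373 to 2535 CPM and 731 to 2455 CPM for Cox6a1. Cox4i1, the widely expressed form of subunit 4, had 161 to 381 CPM in colon and 96.7 to 302 CPM in small intestine. Cox4i2, the lung form, and Cox7b2 reached no more than 8 and 2 counts in any library. The genes Cox4i2, Cox7b2, Cox8c, Ndufa4l2, Ndufb11b and a second ID under the symbol Atp5po made up the 6 members that were too low to be tested, which left 107, of them 94 nuclear and 13 mitochondrial.

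The c ring of ATP synthase is encoded by Atp5mc1, Atp5mc2 and Atp5mc3, which give the same mature protein. Atp5mc3 had 815 to 1775 CPM in colon and 549 to 2328 CPM in small intestine, and Atp5mc1 829 to 1870 CPM and 541 to 1891 CPM. The CPM ratio of Atp5mc1 over Atp5mc3 lay between 1.02 and 1.44 in the colon libraries and between 0.812 and 0.985 in the small intestinal ones, which did not overlap, a ratio picked from 6 after its values were seen and not tested. Atp5mc2 was lower, at 122 to 170 CPM in colon and 84.2 to 154 CPM in small intestine. Since 87.4% of its 50-base words also stand in other genes, its level is uncertain. The same holds for Atp5mg, Cox5b-ps, Ndufa12 and Cox7c, whose shares were 68.5%, 61.9%, 53.8% and 53.0%.

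As a whole, the nuclear set did not separate the groups. It summed to 38171, 51485 and 31464 CPM in GFP-high colon replicates 1 to 3, 57567, 43051 and 39374 CPM in GFP-negative colon replicates and 63195, 40792 and 25004 CPM in small intestinal replicates. The highest and the lowest library of all 9 were both small intestinal, so the groups overlapped. The mitochondrial set summed to 9106, 7114 and 7349 CPM in GFP-high colon, 8821, 6161 and 11193 CPM in GFP-negative colon and 14192, 7595 and 5286 CPM in small intestine, again with both extremes in small intestine. Mitochondrial over nuclear CPM lay between 0.138 and 0.284 in colon and between 0.186 and 0.225 in small intestine. In RNA of sorted cells, fewer cells of a type and less RNA per cell cannot be told apart. The TMM factor, which scales each library, was 0.805 in small intestine replicate 1 and 1.21 in replicate 3, opposite in order to the sums. As a share of raw counts the nuclear set made 5.09% in replicate 1 and 3.03% in replicate 3, and the part of scaling in the difference was not tested.

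**Figure D2:**
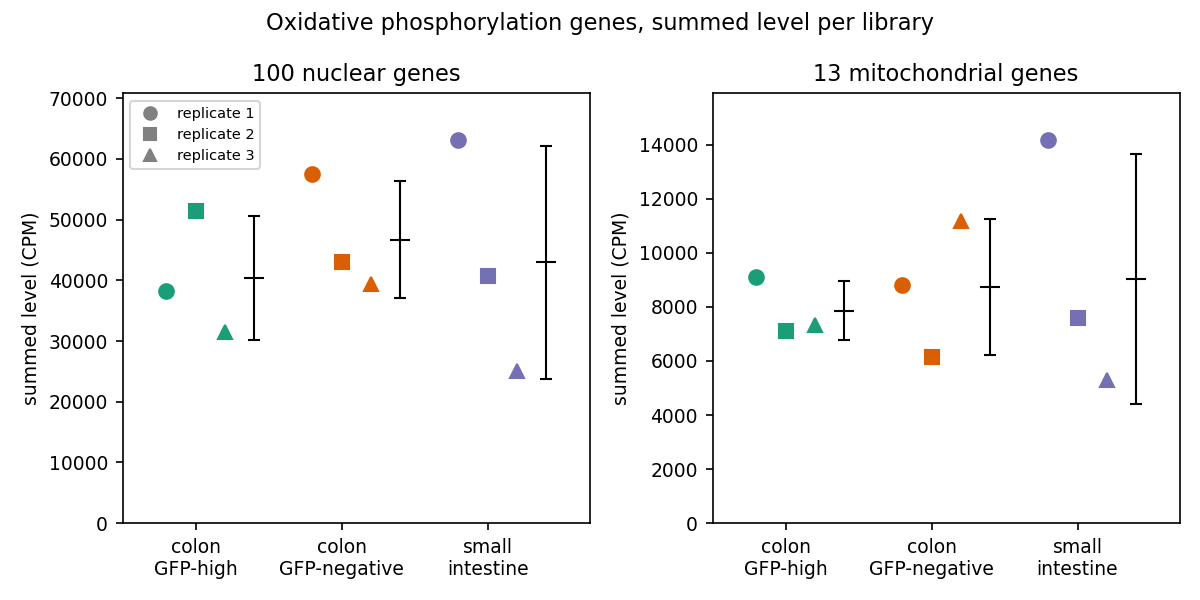
Summed CPM of the 100 nuclear (left) and 13 mitochondrial genes (right) in each library; marker shape gives the replicate, the bar beside each group the mean and SD of its 3 libraries. Nuclear sums ran from 25004 to 63195 CPM within small intestine and from 31464 to 57567 CPM in the colon libraries.

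Nuclear members moved together from library to library. Each of the 90 nuclear members with a mean of at least 10 CPM was higher in small intestine replicate 1 than in replicate 3, with a median ratio of 2.82 and a range of 1.19 for Sdha to 4.67 for Ndufa5, an accessory subunit of complex I. The 10 mitochondrial members above that level had a median ratio of 2.65. Over the 8469 protein-coding genes of that level, the median ratio was 1.04, and 53.2% were higher in replicate 1. Across the 9 libraries, the log2 CPM of a nuclear member had a median Pearson correlation of 0.942 with the mean of the other nuclear members, against 0.586 for mitochondrial members and -0.03 for protein-coding genes, values that share depth and scaling between the points. Ndufv2, a core subunit of complex I, followed the set most closely (0.998), and Cox6a1 reached 0.966. Cox6b2, Sdha and Ndufs1, an iron-sulfur core subunit of complex I, followed it least, at -0.14, -0.14 and 0.105. The small intestinal libraries also differed in their cell markers. Enterocyte markers summed to 33189 CPM in replicate 1, 526 CPM in replicate 2 and 7281 CPM in replicate 3, and Paneth cell markers to 23316, 24818 and 15586 CPM, and the part of cell composition in the spread of the set was not tested.

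**Figure D3:**
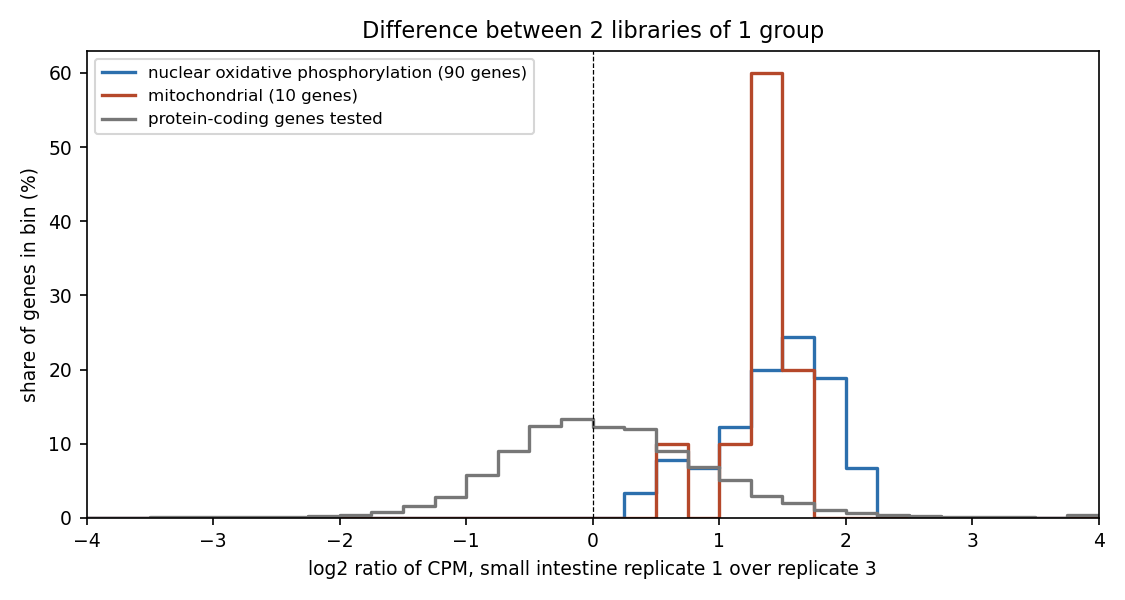
Distribution over genes of the log2 ratio of CPM in small intestine replicate 1 over replicate 3, for 90 nuclear and 10 mitochondrial oxidative phosphorylation genes and for protein-coding genes tested (mean of at least 10 CPM; values beyond 4 in either direction stand in the outermost bin). All 90 nuclear genes lay above 0, with a median ratio of 2.82, against a median ratio of 1.04 over protein-coding genes.

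Whether regions of the gut differ in these genes was asked by setting the 6 colon libraries against small intestine. In colon, 1 of the 107 members was called, Sdha, which was lower (edgeR quasi-likelihood test, Benjamini-Hochberg adjusted p under 0.05). Over all genes, 1812 of 20610 (8.79%) were called, 3.79% as lower. At an unadjusted p under 0.05 stood 5 members, among them Sdha, Ndufa7, Cox8b and Atp5f1e, against 24.9% of all genes. No mitochondrial gene was called, in edgeR, DESeq2 or limma-voom, and none had an unadjusted p under 0.05 in any of the 3. Relative to a median of 0.00 over all genes, the median log2 fold change was 0.25 in the nuclear set, with 70 of 94 positive, and -0.10 in the mitochondrial set, with 4 of 13 positive, where a block for the library name tag gave 0.18. Short protein-coding genes had positive medians as well, given below with coding length. Dropping small intestine replicate 1 gave a nuclear median of 0.71, while dropping replicate 3 gave -0.07. With replicate 1 dropped, 24 members, 23 of them nuclear, had an unadjusted p under 0.05, against 4850 of 22255 genes. That fit called 0 members, against 1014 genes. The mitochondrial median turned to 0.17 without small intestine replicate 1 and to 0.04 without both colon replicate 2 libraries.

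Sdha encodes the flavoprotein of complex II, the subunit that oxidises succinate (ENSMUSG00000021577.15, GRCm38 chromosome 13, 74322254 to 74350280, minus strand). It had 336, 618 and 711 CPM in GFP-high colon replicates 1 to 3, 757, 790 and 326 CPM in GFP-negative colon and 1511, 1468 and 1266 CPM in small intestine. Every colon library lay below every small intestinal one. The log2 fold change was -1.27 ± 0.33 (SE), or 2.41-fold lower in colon, with an adjusted p of 0.0480 in edgeR's quasi-likelihood test, just under the threshold. The call was lost in 12 of 20 alternatives, 8 of them fits without 1 library, where it held only without GFP-negative colon replicate 3 and the adjusted p ran from 0.0489 to 0.150. Its log2 fold change stayed between -1.41 and -1.11. With the factors deposited in the table in place of those recomputed on the tested genes the adjusted p was 0.0519. Library names carry tags whose meaning the labels do not give. Against the small intestinal library of the same tag, the log2 ratio was -2.13 in GFP-high colon replicate 1 and -0.96 in GFP-negative colon replicate 1, which share small intestine replicate 2, and -0.83 in GFP-high colon replicate 3.

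The other subunits of complex II were not called. Sdhb, the iron-sulfur protein, had 952, 1220.4 and 672 CPM in GFP-high colon, 1186, 940.0 and 1126 CPM in GFP-negative colon and 1631, 842 and 570.1 CPM in small intestine. Its groups overlapped, and the log2 fold change was -0.00 ± 0.36 with either sign among the alternatives. Sdhc, a membrane anchor, had -0.10 ± 0.27, turning positive in 2 of 20 alternatives, and Sdhd had 0.37 ± 0.39. Within a library, Sdha over Sdhb ran from 0.290 to 1.06 in colon and from 0.926 to 2.22 in small intestine, so the ratio overlapped between regions. All Sdha 50-base words were its own.

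**Figure D4:**
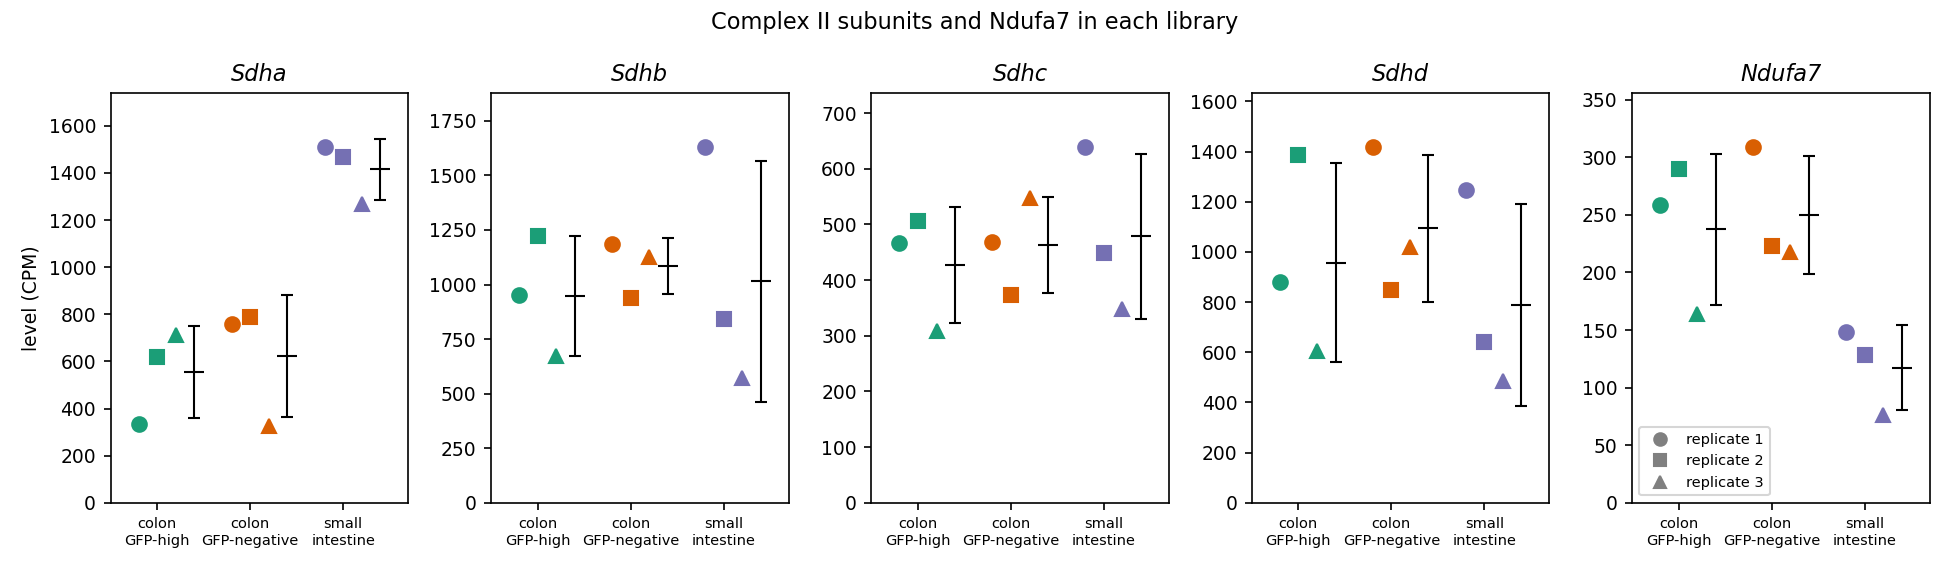
CPM of the 4 complex II subunits and of Ndufa7 in each library; marker shape gives the replicate, the bar beside each group the mean and SD of its 3 libraries, and each panel has its own axis. Sdha lay at 326 to 790 CPM in colon and 1266 to 1511 CPM in small intestine, and Ndufa7 at 164 to 309 CPM in colon and 76.0 to 148 CPM in small intestine.

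The promoter windows of members were searched for motifs known from respiratory genes. The transcription factor NRF1 binds a palindrome whose core GCGCATGCG was searched on both strands, as was a relaxed form with any base in its middle, GCGCANGCG. Of 66 promoters of 64 members in RefSeq's table (GRCm38.p6, 250 bases before to 50 after the start), 25.8% held the relaxed form, which includes the exact one, and 12.1% the exact form. Of 32851 promoters in all, 6.25% held the relaxed and 1.75% the exact form. The ETS core CCGGAAG was in 19.7% of member promoters and 8.86% of all, and AAGATGGC, bound by YY1, in 13.6% of member promoters and 2.75% of all. Median GC content was 59.0% in member promoters and 52.7% in all. The 250 bases before the start are shown for Sdha (chr13:74350241-74350490, minus strand), the member that was called, and for Cox6a1 (chr5:115348959-115349208, minus strand), the nuclear member with the highest level, with matches to the NRF1 and ETS letters on either strand in capitals.
Sdha: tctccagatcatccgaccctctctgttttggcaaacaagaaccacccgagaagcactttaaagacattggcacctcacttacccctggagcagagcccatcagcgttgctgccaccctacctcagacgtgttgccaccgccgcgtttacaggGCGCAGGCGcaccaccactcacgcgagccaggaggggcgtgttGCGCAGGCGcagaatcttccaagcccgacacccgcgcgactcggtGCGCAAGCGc
Cox6a1: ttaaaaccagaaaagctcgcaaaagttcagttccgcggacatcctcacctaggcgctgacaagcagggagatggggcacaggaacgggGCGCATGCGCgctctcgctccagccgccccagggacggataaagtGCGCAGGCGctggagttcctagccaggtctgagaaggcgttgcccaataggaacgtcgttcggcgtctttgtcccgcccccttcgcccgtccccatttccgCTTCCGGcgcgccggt
Both windows hold the relaxed NRF1 letters, and the Cox6a1 window also the exact ones and the ETS letters. The other 36 nuclear members had no entry in the table.

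Among members with counts in both regions, the one with the highest fold change in colon belonged to complex I. Ndufa7, an accessory subunit (ENSMUSG00000041881.14, GRCm38 chromosome 17, 33824572 to 33838317, plus strand), stood in GFP-high colon at 259, 289.5 and 164 CPM, and had 309, 223 and 218 CPM in GFP-negative colon and 148, 128 and 76.0 CPM in small intestine. All colon libraries lay above all small intestinal ones. The log2 fold change was 1.05 ± 0.30, with an adjusted p of 0.0614 in edgeR's quasi-likelihood test, so it was not called. It was called in 5 of 20 alternatives, among them DESeq2 (0.00573) and limma-voom (0.0473), with 0.81 to 1.25 and adjusted p of 0.00573 to 0.270 over all. Against the library of the same name tag, the log2 ratio was 1.01 in GFP-high colon replicate 1 and 1.27 in GFP-negative colon replicate 1, again against the same small intestinal library, and 1.11 in GFP-high colon replicate 3. The accessory subunits had a median of 0.37 with 27 of 30 positive, and the 7 nuclear core subunits one of 0.08 with 4 positive. Among these core subunits, Ndufs1 had 76.0 to 177 CPM in colon and 183 to 244 CPM in small intestine without overlap (-0.61 ± 0.29), and was not called. Ndufa7 above, and Sdha and Ndufs1 below, were the members whose colon and small intestinal libraries did not overlap, where 9.49% of all genes lay above and 8.39% below.

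None of the 8 assembly factors of complex I was called. Ndufaf2 had the largest positive value, 0.73 ± 0.33, with 32.9 to 77.9 CPM in colon and 20.9 to 44.7 CPM in small intestine. Ndufaf1, with the largest negative one, had 42.5 to 66.3 CPM and 53.9 to 84.0 CPM. Their groups overlapped.

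Complexes III to V gave no called member, at medians of 0.15, 0.31 and 0.16 for their nuclear genes. In complex III, Uqcr10, a small accessory subunit, had 122 to 304 CPM in colon and 52.8 to 160.0 CPM in small intestine (0.87 ± 0.39), and Uqcrc1, a core protein, 1275 to 1896 CPM and 1573 to 3193 CPM (-0.51 ± 0.29). In complex V, Atp5f1e, the epsilon subunit of F1, had 69.4 to 156 CPM in colon and 58.7 to 96.6 CPM in small intestine (0.72 ± 0.30), and Atp5f1a 1767 to 3610 CPM and 2923 to 4745 CPM (-0.52 ± 0.32). Cycs had 472 to 1039 CPM in colon and 325 to 1439 CPM in small intestine. Atp5if1, the inhibitor of ATP synthase, had 197 to 387 CPM in colon and 122 to 521 CPM in small intestine. In complex IV, Cox7a1 had the largest negative value, -0.57 ± 0.89, and the 3 mitochondrial subunits mt-Co1, mt-Co2 and mt-Co3 overlapped between groups. DESeq2 alone called Cox8b, at the low counts given above, besides Sdha and Ndufa7, where it called 3618 of 20610 genes.

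**Figure D5:**
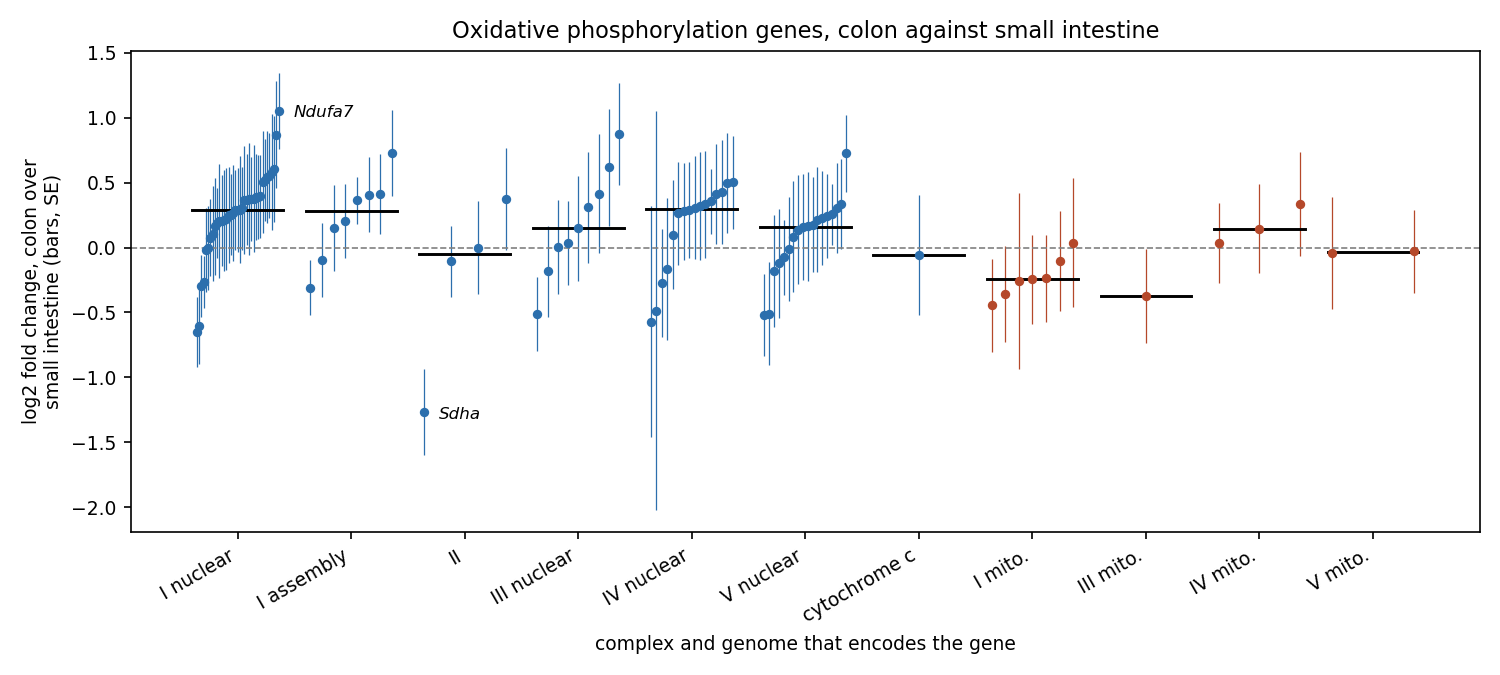
Log2 fold change of each tested member, colon over small intestine (point; bar, SE), by complex and encoding genome, with the median of each group as a line; Cox8b, at 0 in small intestine, is left out. Most nuclear members lay between 0 and 0.5, Sdha at -1.27 and Ndufa7 at 1.05.

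In colon against small intestine, longer members had the lower fold changes. Over 89 nuclear members, Spearman's rho between coding length and log2 fold change was -0.38, and over 8448 protein-coding genes it was -0.40. The 21 members of up to 300 bases had a median of 0.31, against 0.38 for 206 protein-coding genes of such length. From there to 600 bases, 43 members had 0.30, against 0.28 for 1078 genes. The 10 members with a coding length over 1200 bases, among them Sdha, Ndufs1, Uqcrc1, Atp5f1a and Atp5f1b, had a median of -0.51, against -0.39 for 4464 genes of such length. Without these 10, rho over the members was -0.24. The same order was seen between small intestine replicates 1 and 3, where rho was -0.50 in members and -0.47 in protein-coding genes, so length moved with differences between libraries of 1 group too. Between GFP-high and GFP-negative colon the sign was the other one in members, with a rho of 0.31, and -0.08 in protein-coding genes. The part of length in the set medians and in the values of Sdha and Ndufa7 was not tested.

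Markers of other cells also differed between the regions. Paneth cell markers, all 5 called lower in colon, summed to 16.3 to 336 CPM in colon and 15586 to 24818 CPM in small intestine. Of 7 small intestinal enterocyte markers 6 were called lower, with sums of 76.6 to 238 CPM and 526 to 33189 CPM. Of 5 goblet cell markers 2 were called higher, with sums of 2612 to 22538 CPM in colon and 601 to 5965 CPM in small intestine. Of 6 colonocyte markers 1 was called higher, with sums of 483 to 25838 CPM in colon and 109.9 to 3320 CPM in small intestine. The 6 leukocyte, 4 enteroendocrine, 4 stem cell, 4 tuft and 4 cycling markers gave no call in edgeR, with 1 cycling marker at an unadjusted p under 0.05. Even so, 5 leukocyte markers were positive and 1 negative, with a median of 3.13. All 4 stem cell markers were negative, with a median of -1.43. Of 5 pan-epithelial markers, Vil1 was called lower (-1.57 ± 0.39, adjusted p = 0.0390 in edgeR), while 2 were positive and the median was -0.13. Of 2 endothelial markers tested, Esam was called lower (-1.68 ± 0.43, adjusted p = 0.0455 in edgeR), while the other was positive (1.70). Both calls lay in the direction of Sdha, but the markers of each list were split in sign. Of 3 muscle markers only 1 was tested, at 7.98, with an unadjusted p under 0.05 but an adjusted p of 0.155 in edgeR. The 2 stromal and 2 red blood cell markers tested gave no call, with 1 positive and 1 negative in each list. The part of these cells in the values of Sdha and of the muscle form Cox8b was not tested.

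GFP-high colon cells set against small intestine shared the 3 small intestinal libraries, and 3 of the 6 colon libraries, with the comparison above. No member was called by edgeR among 1173 genes called (5.69%; 3.94% higher and 1.75% lower), and 4 members had an unadjusted p under 0.05, against 20.5% of all genes. DESeq2 called 2 members, Sdha and Ndufa7, where it called 2713 of 20610 genes. It had 5 members with an unadjusted p under 0.05, against 4871 genes. With limma-voom, 0 members were called, against 1060 genes, and 4 had an unadjusted p under 0.05, against 4278 genes. Sdha had -1.35 ± 0.40 with an adjusted p of 0.0955 in edgeR and 0.0126 to 0.297 over 21 alternatives. Ndufa7 had 1.02 ± 0.33 with 0.121 in edgeR and 0.0347 to 0.373. Without overlap, 3 members lay above, Ndufa7, Ndufaf2 and Ndufaf7, and 3 below, among them Sdha and Ndufs1, where 14.2% and 13.1% of all genes did. The nuclear median was 0.15 and the mitochondrial one -0.12, or 0.02 when scaled by total counts and 0.23 with a name tag block. Without small intestine replicate 1 they were 0.59 and 0.28, and without replicate 3 they were -0.19 and -0.42. Without the library labelled GFP-high colon replicate 2 the nuclear median was -0.09.

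GFP-high against GFP-negative colon cells gave no called member, and no called gene in all (0% in edgeR, with 226 genes at an unadjusted p under 0.05). DESeq2 called 1 gene, limma-voom 0. No member had an unadjusted p under 0.05 in edgeR, DESeq2 or limma-voom, against 1.10% of genes in edgeR, and for none of them did the groups fail to overlap, where 2.81% of genes lay above and 1.59% below. The median log2 fold change was -0.21 in the nuclear set, with 88 of 94 negative, and -0.10 in the mitochondrial set, with 12 of 13 negative, which turned to 0.16 with a name tag block, to 0.07 when scaled by total counts and to 0.08 without GFP-negative colon replicate 3. Since members move together from library to library, these are not separate observations. Other cell markers differed in the same comparison, none of them called: the 6 leukocyte markers were all negative, with a median of -3.30, and the 4 tuft, 4 stem cell and 4 enteroendocrine markers all positive, with medians of 1.42, 0.75 and 0.76. Leukocyte markers summed to 55.5 to 621 CPM in GFP-high and 24.4 to 6284 CPM in GFP-negative colon, and their part in the medians was not tested. The directions here depend on the sort labels, which Lgr5 did not match in replicate 2. Without both colon replicate 2 libraries the nuclear median was -0.51, with 0 members called, and without GFP-negative colon replicate 1 it was -0.02. Scaling by total counts gave -0.09 in the nuclear set, where the median of all genes was 0.13 in place of -0.02. The nuclear sums of the libraries labelled replicate 2 were 51485 CPM for GFP-high and 43051 CPM for GFP-negative, against 38171 and 31464 CPM in the other GFP-high and 57567 and 39374 CPM in the other GFP-negative libraries.

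Genes that assemble, feed or regulate the chain were read from fixed lists. In the colon comparison, edgeR called 1 of 50 assembly factors tested outside the Nduf family, 2 of 24 genes of mitochondrial gene expression, 3 of 17 nuclear regulators of respiration, 0 of 14 genes of the tricarboxylic acid cycle, 1 of 12 of pyruvate entry, 3 of 21 of glycolysis, 1 of 8 carriers and pores, 4 of 8 other routes of electron entry and 2 of 10 antioxidant genes, 17 in all, where 8.79% of all genes were called. Of the tricarboxylic acid cycle genes, 7 of 14 had an unadjusted p under 0.05 in edgeR, as 24.9% of all genes did. The median over each list ran from -0.70 in the regulators to 0.05 in the assembly factors.

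Other routes that feed electrons to ubiquinone split in direction. Sqor, which oxidises hydrogen sulfide, had 326, 1112 and 458 CPM in GFP-high colon, 850.3, 623 and 683 CPM in GFP-negative colon and 206, 93.1 and 89.98 CPM in small intestine. All colon libraries were higher, and the log2 fold change was 2.37 ± 0.49 with an adjusted p of 0.0187 in edgeR. Gpd2, the mitochondrial glycerol-3-phosphate dehydrogenase, had 26.8 to 47.3 CPM in colon and 96.8 to 179 CPM in small intestine (-1.85 ± 0.27, adjusted p = 0.00443 in edgeR). Prodh, which oxidises proline, was lower by the same test (-1.57 ± 0.24), as was Etfdh, which takes electrons from fatty acid oxidation (-0.89 ± 0.20).

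Among glycolytic genes, Ldhb, a lactate dehydrogenase, had 15.3 to 95.4 CPM in colon and 0.697 to 2.44 CPM in small intestine (4.79 ± 0.65, adjusted p = 0.00316 in edgeR). Hk1, a hexokinase bound to mitochondria, rose as well (2.97 ± 0.55). Among regulators, Pparg, a nuclear receptor, had 118 to 160.5 CPM in colon and 20.2 to 28.4 CPM in small intestine (2.66 ± 0.22, adjusted p = 3.11e-04 in edgeR). Nrf1, whose product binds the motif above, had 22.9 to 38.8 CPM in colon and 40.7 to 63.9 CPM in small intestine (-0.91 ± 0.21), and Esrrg, an orphan receptor, was lower too (-2.88 ± 0.64). Lrpprc, which stabilises mitochondrial mRNAs, fell (-1.69 ± 0.35), as did Polrmt, the mitochondrial RNA polymerase (-0.98 ± 0.22), while the mRNAs of the mitochondrial genome showed no call.

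In the other lists, Higd1a, a small protein of complex IV, rose (2.28 ± 0.43), and so did Slc25a4, an ADP and ATP carrier (1.48 ± 0.31). Cat, the catalase, fell (-1.34 ± 0.23), as did Txnrd2, the mitochondrial thioredoxin reductase (-1.15 ± 0.21), and Pdk2, a kinase of pyruvate dehydrogenase (-0.83 ± 0.19). Of the 17 calls in these lists, 6 held in all 9 fits without 1 library, among them those of Pparg, Ldhb, Gpd2, Prodh and Cat. The other 11 were lost in at least 1 of those fits, with adjusted p up to 0.141. Etfdh was lost in 8 of the 9, Pdk2 in 7, Nrf1, Polrmt and Esrrg in 6 each, Lrpprc in 3, Sqor and Txnrd2 in 2 each, and Higd1a, Hk1 and Slc25a4 in 1 each. All 17 were lost in the fit with a name tag block.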

How the data were processed

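Raw read counts per gene and library were used as the authors deposited them, with 86621513 to 106673547 counts per library. The submitters' processing notes name mm10 as build and, as tools, edgeR, Subread, STAR and featureCounts. The library scaling factor in the deposited table is a ratio, and equalled edgeR's TMM factor over all genes within 1e-06. The deposited log2 CPM, RPKM and TPM values were not tested. CPM and RPKM were computed from the counts with the deposited factors.

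Tests used R 4.3.3 and edgeR 4.0.16. Genes too low by filterByExpr were dropped (57629, leaving 20610), TMM factors were recomputed, and 1 quasi-likelihood model with a mean per group was fitted to all 9 libraries. P-values were adjusted over all 20610 genes by Benjamini and Hochberg, with a threshold of 0.05. The fit with the deposited factors was run before the one reported, and its calls are given as an alternative chosen after seeing the data. Other alternatives were RLE and total-count scaling, DESeq2 1.42.0, limma-voom (limma 3.58.1), other filters, blocks, and each library left out. The procedure was also run on simulated data with 200 changed genes. These were changed more strongly than Sdha or Ndufa7 and independently of each other, so the run does not show how smaller or shared changes are found. Correlations used log2(CPM + 0.5) and genes with a mean of at least 10 CPM. Floors of 3 counts cover counting error only.

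Members were all protein-coding genes that the symbol rule matched. Members and gene lists were chosen with earlier results of these data known. Named were Lgr5, the mitochondrial genes, called members, the highest level and the extreme fold changes of each complex, fixed isoform families, members not tested, and called genes of other lists, up to 6 per list. Members named for groups that did not overlap, for length, likeness or shared sequence were picked after their values were seen. Some genes that these rules name are not reported here. Gene models came from GENCODE M21 and promoters from RefSeq. Sequence shared with other genes was counted over 50-base words.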

Additional observations from a re-analysis of the deposited data

How the results depend on the processing

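The number of nuclear members called in colon against small intestine, 1, was 2 with total counts, limma-voom or a filter of at least 1 CPM, 3 with DESeq2, and 0 with the deposited factors, with a block for the library name tag or without both colon replicate 2 libraries. Leaving out 1 library gave 0 to 1. For GFP-high colon against small intestine, 0 became 1 with total counts and 2 with DESeq2, and 0 to 1 without 1 library. Same-numbered libraries did not deviate together (correlations of -0.604 to 0.303), and they were not treated as pairs. However, 3 same-numbered pairs also share a name tag, and the lowest value is that of the colon replicate 2 libraries. Deviations were taken from the means of the labelled groups, and Lgr5 did not match those labels in replicate 2. The check therefore cannot show that libraries are unpaired. With a replicate block 895 genes were called in place of 1812, Sdha had an adjusted p of 0.111 and Ndufa7 one of 0.0478 in edgeR. The name tag block left 18 genes and DESeq2 called 3618. Sdhb, at -0.00, became 0.036 with RLE or DESeq2, 0.035 with the 1 CPM filter, 0.068 with total counts, 0.11 with limma-voom, 0.10 with the replicate block and 0.29 with the tag block, and ran from -0.29 to 0.52 without 1 library. Without 1 library Sdhc ran from -0.30 to 0.16, mt-Cytb from -0.67 to 0.10 and mt-Nd1 from -0.40 to 0.45. The tag block gave 0.13 for mt-Cytb and 0.40 for mt-Nd1, which had 0.0066 with limma-voom and 0.037 without both colon replicate 2 libraries. The cause of these changes was not tested. Depth was high, and the limits are 3 libraries per group, nuclear sums that spread more widely within small intestine than in colon, and small intestinal cells whose GFP fraction is not given.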
